A study of Mus musculus with 12 samples.

Results

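The genes of the proteasome subunits were followed through 12 rhabdoid tumors (RTs). The members are the genes named Psma, Psmb, Psmc, Psmd or Psme plus a number, without Psmb8 and Psmb9. They number 41 of the 24060 gene rows, and 39 of the 41 reached 1 RPKM (the deposited unit, a read count divided by transcript length and by library size) in at least 3 tumors. The tumors arose in P0-CreC;Smarcb1flox/flox mice on an FVB/N background, in which Cre is driven by the P0 promoter and removes Smarcb1 in early neural crest cells. Every tumor carried this genotype, no normal tissue or control tumor was analysed here, and the ages of these mice are not given in the sources used here. By label, 4 tumors were Retro-orbital, 3 Cheek, 3 Meninges, 1 Vestibular N and 1 Trigeminal N. Cheek 2 and Cheek 3 share the first part of their titles, as do Cheek 1 with Meninges 1 and Retro-orbital 3 with Trigeminal N 1, and whether a shared part means a shared mouse is not stated.

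The proteasome degrades proteins that carry a ubiquitin chain. Its core particle is a barrel with outer rings of alpha subunits (Psma) and inner rings of beta subunits (Psmb), of which Psmb5, Psmb6 and Psmb7 carry the chymotrypsin-like, caspase-like and trypsin-like cutting sites. The regulatory particle on its ends has a base, with the Psmc ATPases that unfold substrates, and a lid, in which Psmd14 removes the ubiquitin chain. Interferon exchanges the catalytic subunits for immunoproteasome forms, Psmb10 taking the place of Psmb7, and raises the activator made of Psme1 and Psme2. Nfe2l1, a transcription factor that binds antioxidant response elements, is known to raise subunit genes when proteasome capacity falls short, and Myc, which binds E-boxes, raises many genes of growth and protein synthesis.

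Promoters of 34 members were matched in RefSeq on GRCm38.p6 (37 promoters, each 250 bases before to 50 after a start). Psma8, Psmb1, Psmb2, Psmb7, Psmc3, Psmd3 and Psmd7 were not matched. The antioxidant response element core TGACNNNGC stood on either strand in 6 of the 37 (16.2%; Psmb5, Psmb6, Psmc6, Psmd9, Psmd12 and Psme4), against 12.4% of all 32851 promoters. The E-box CACGTG stood in 4 (10.8%; Psma4, Psmb10, Psmd9 and Psme3), against 7.15%. The core of the interferon-stimulated response element, GAAANNGAAA, was added after values were seen and stood in 4 (10.8%; Psmb3, Psmd4, Psmd9 and Psme1), against 3.44%. In none of the 37 promoters did sites of different motifs overlap, and Psmd9 held all 3. Shown are 2 constitutive catalytic subunits with the antioxidant response core, the immunoproteasome subunit with an E-box and the activator gene with the interferon motif. Each is printed from 250 bases before the start to 30 after it, with the motif on either strand in capitals.
Psmb5, chr14:54617966-54618245, minus strand: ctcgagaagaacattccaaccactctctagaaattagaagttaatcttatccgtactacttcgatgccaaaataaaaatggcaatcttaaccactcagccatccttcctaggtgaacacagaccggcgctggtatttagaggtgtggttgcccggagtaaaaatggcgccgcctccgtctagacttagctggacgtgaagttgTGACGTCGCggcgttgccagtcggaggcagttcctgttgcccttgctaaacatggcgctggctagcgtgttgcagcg
Psmb6, chr11:70525107-70525386, plus strand: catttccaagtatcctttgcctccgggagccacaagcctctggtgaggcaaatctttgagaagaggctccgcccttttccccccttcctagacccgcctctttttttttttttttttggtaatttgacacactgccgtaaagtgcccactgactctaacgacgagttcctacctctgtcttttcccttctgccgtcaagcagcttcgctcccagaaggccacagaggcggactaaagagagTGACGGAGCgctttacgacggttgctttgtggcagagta
Psmb10, chr8:105938363-105938642, minus strand: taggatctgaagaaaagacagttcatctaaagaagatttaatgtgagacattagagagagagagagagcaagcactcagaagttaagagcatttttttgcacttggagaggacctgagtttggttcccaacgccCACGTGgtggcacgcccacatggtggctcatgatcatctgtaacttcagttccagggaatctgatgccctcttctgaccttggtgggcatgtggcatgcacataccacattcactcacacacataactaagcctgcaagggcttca
Psme1, chr14:55578244-55578523, plus strand: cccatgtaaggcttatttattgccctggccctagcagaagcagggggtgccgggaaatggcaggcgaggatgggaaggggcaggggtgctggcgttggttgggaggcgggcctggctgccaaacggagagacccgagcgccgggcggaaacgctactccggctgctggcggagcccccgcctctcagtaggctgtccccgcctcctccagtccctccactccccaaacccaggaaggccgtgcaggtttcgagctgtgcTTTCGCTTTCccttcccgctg
The site began 47 bases before the start in Psmb5, 9 before it in Psmb6, 116 before it in Psmb10 and 9 after it in Psme1, where the letters run on the opposite strand. These matches are letters in a window, and binding was not measured.

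From the steps between low RPKM values, totals of 13206168 to 57128422 fragments per tumor were inferred (median 27929720). The highest, in Retro-orbital 3, rested on the fewest genes (238, against 472 to 1147 in the other tumors). The depth that the paper reports per sample, in reads, spans a narrower range. The 39 members tested were covered by 115 (Psmb10 in Cheek 3) to 13664 fragments (Psmd7 in Cheek 1). Smarcb1 itself was listed at 1.70 to 6.31 RPKM. Of the markers of rhabdoid tumor staining, Vim stood at 114 to 3001 RPKM and Acta2 at 4.21 to 56.2 in all tumors, whereas Fabp7 was below 1 RPKM in 4 of 12. Summed skeletal muscle markers ran from 5.34 RPKM in Retro-orbital 3 to 499 in Cheek 2, leukocyte markers from 579 in Vestibular N 1 to 5693 in Retro-orbital 2, and astrocyte and oligodendrocyte markers from 2.98 in Retro-orbital 2 to 393 in Meninges 3. Of the red cell markers, Hbb-bs and Hba-a1 were listed at 0 in every tumor, whereas Alas2 was at 2.34 to 11.5 RPKM. Cheek 2 and Cheek 3 had the lowest chi-square between fragment counts over the members, 10.1 per degree of freedom, and the next pair had 21.3 (Retro-orbital 1 with Meninges 3). The measure sets a difference against counting error alone and grows with depth, and Cheek 3 had the fewest fragments. It does not show that Cheek 2 and Cheek 3 were separate tumors, and they were counted separately as labelled.

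Nearly all subunits were abundant. Of the 41 members, 36 stood at 10 RPKM or more in every tumor, and the median of the 39 tested members was 74.6 RPKM against 8.18 for all 15043 genes tested. In bulk tumor RNA, fewer cells of a type and less RNA per cell cannot be told apart. Summed over members, the level ran from 2396 RPKM in Retro-orbital 2 to 3622 RPKM in Cheek 1, which is 0.593% and 0.85% of each tumor's summed RPKM. Cheek 1 held the highest value of 19 of the 39 members, and Meninges 3 the lowest of 15.

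**Figure D1:**
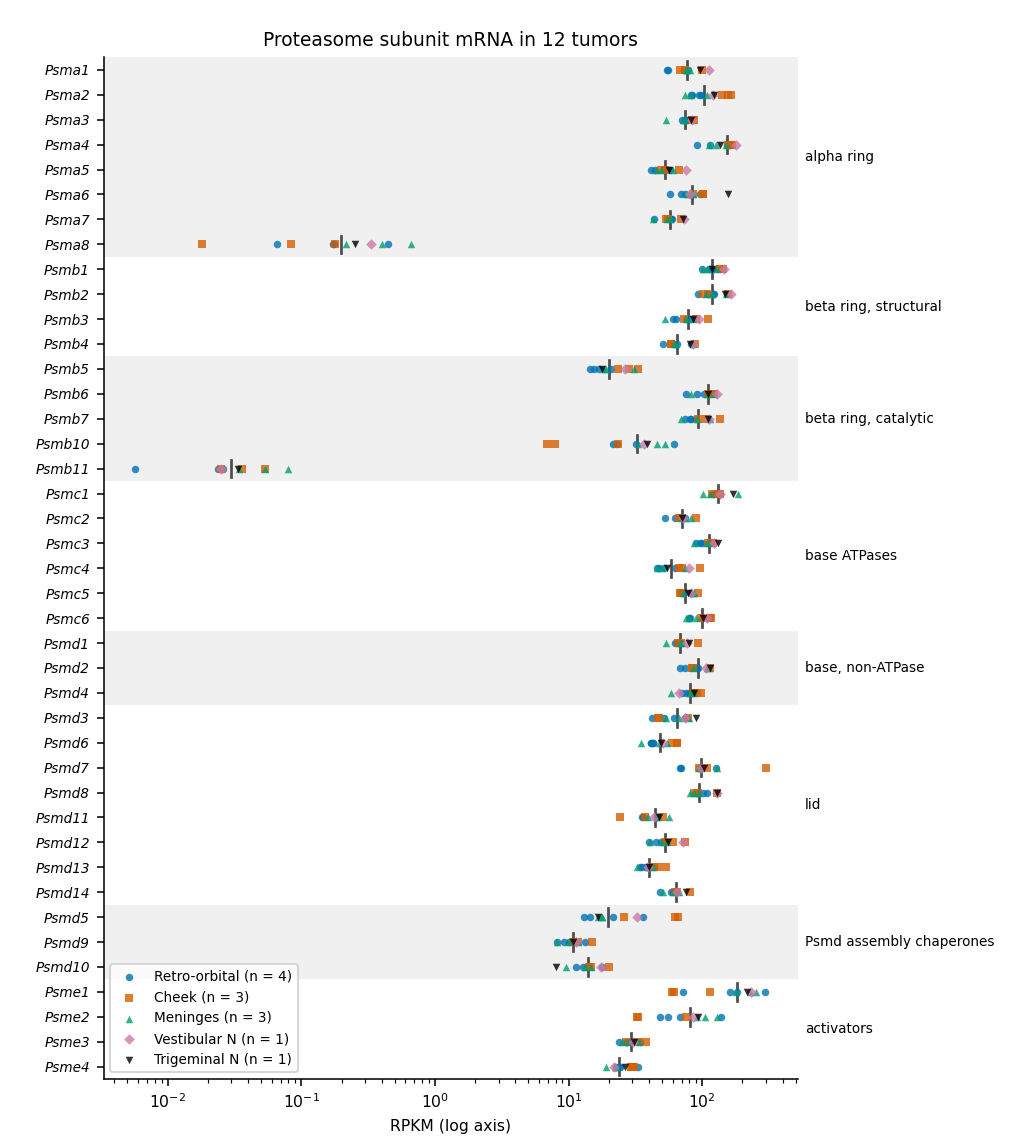
RPKM of the 41 subunits (log axis) in the 12 tumors, grouped by subcomplex. Each symbol is a tumor, coloured by location, the vertical bar is the median, and the 1 value of 0 (Psmb11 in Retro-orbital 3) is not drawn. Of the 41 subunits 36 lie at 10 RPKM or more in every tumor, Psma8 and Psmb11 far below them.

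The catalytic subunits were unequal per length. Median Psmb6 was 110.2 RPKM (75.9 to 129) and median Psmb7 92.6 RPKM (69.7 to 136), but median Psmb5 was 19.9 RPKM (14.4 to 32.8). In the Retro-orbital tumors, Psmb5 was at 15.4, 20.6, 14.4 and 17.0 RPKM, in the Cheek tumors at 32.8, 23.5 and 28.1, in the Meninges tumors at 30.7, 19.1 and 18.3, in Vestibular N 1 at 26.3 and in Trigeminal N 1 at 17.7. All Cheek tumors lay above all Retro-orbital tumors, and the Meninges tumors overlapped both. How many of all genes separate the Cheek and Retro-orbital tumors in this way was not counted. The ratio of Psmb5 to Psmb6 stayed between 0.13 (Retro-orbital 3) and 0.271 (Retro-orbital 2), so Psmb5 was the lowest of these 3 subunits in every tumor. Pseudogenes named for Psmb5, Psmb6 and Psmb7 are annotated, and since only uniquely mapped reads were counted, reads shared with such copies would be missing from these values.

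Psmb10, the immunoproteasome counterpart of Psmb7, was the most variable member, with an SD of 0.93 on the log2(RPKM + 1) scale. Its levels were 32.2, 21.5, 23.1 and 61.6 RPKM in the Retro-orbital tumors, 23.3, 7.96 and 6.86 in the Cheek tumors, 52.4, 45.7 and 33.0 in the Meninges tumors, 36.7 in Vestibular N 1 and 38.8 in Trigeminal N 1. Cheek 2 and Cheek 3 stood below the 10 other tumors. The ratio of Psmb10 to Psmb7 therefore ran from 0.0733 in Cheek 3 to 0.759 in Retro-orbital 4 (median 0.339). The gene Gm16156 overlaps Psmb10 on the other strand, and the strand setting of the counting is not given in the sources used here. Psmb8 and Psmb9, the other immunoproteasome subunits, were lowest in Cheek 2 (7.34 and 2.51 RPKM), followed by Cheek 3 (8.11 and 2.54 RPKM).

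The tissue-restricted subunits were close to absent. Psma8, an alpha subunit of male germ cells, did not pass 0.664 RPKM in any tumor (1 to 22 fragments), and Psmb11, the catalytic subunit of thymic cortical epithelium, did not pass 0.0794 RPKM (0 to 6 fragments). These 2 genes are the members that did not enter the fits.

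Among the structural rings, the alpha subunits ran from a median of 52.4 RPKM (Psma5) to 152 (Psma4), and the structural beta subunits from 64.6 (Psmb4) to 119 (Psmb1). Psma6 stood at 157 RPKM in Trigeminal N 1 and at 57.2 to 102 in the other 11 tumors. The 6 ATPases of the base had medians from 58.9 (Psmc4) to 131 RPKM (Psmc1). Psmc5 was the steadiest of the tested members, at 68.4 RPKM in Cheek 3 to 92.4 in Cheek 1 (SD 0.15, log2). The base scaffold and ubiquitin-binding subunits ran from 68.5 (Psmd1) to 92.2 RPKM (Psmd2).

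Lid subunits had medians from 39.9 (Psmd13) to 98.3 RPKM (Psmd7). The deubiquitinase Psmd14 stood at 64.1, 57.9, 48.0 and 60.1 RPKM in the Retro-orbital tumors, 81.1, 64.9 and 62.8 in the Cheek tumors, 60.6, 67.2 and 50.5 in the Meninges tumors, 65.1 in Vestibular N 1 and 75.8 in Trigeminal N 1. These groups overlapped, and the whole range of Psmd14 was 1.69-fold. Its partner in the lid, Psmd7, was at 301 RPKM in Cheek 1 and at 68.1 to 129.7 in the other 11 tumors. Psmd7 was singled out after its values were seen. Cheek 1 exceeded the next tumor by 2.32-fold, and 48 of the 15043 genes (0.319%) stood at least as far above the other tumors in Cheek 1. Psmd7 lies on the minus strand of chromosome 8 (107580381 to 107588464, GRCm38). Of the 8 tested genes with any part within 500 kb (Mir140 and 7 protein-coding genes), none stood above the range of the other tumors in Cheek 1. Nob1 was at 27.5 RPKM there (12.7 to 38.4 elsewhere), Nqo1 at 8.75 (1.14 to 95.7) and Zfhx3 at 13.0 (1.4 to 15.5). From the median of the other 11 tumors, Psmd7 differed by 1.61 in Cheek 1 on the log2(RPKM + 1) scale. For the 8 neighbours this difference ran from -1.27 (Nqo1) to 1.45 (Zfhx3).

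**Figure D2:**
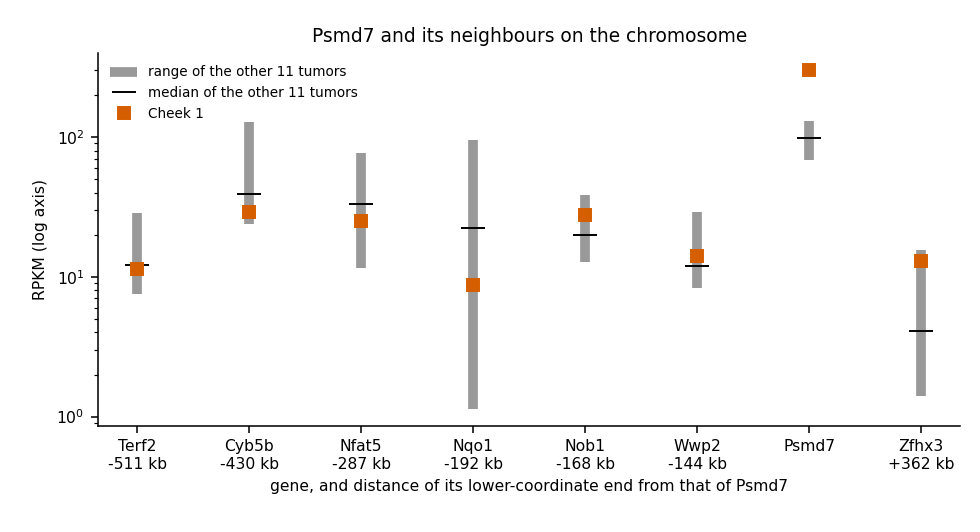
RPKM (log axis) of Psmd7 and the 7 tested protein-coding genes with any part within 500 kb of it (Mir140 is not drawn) in Cheek 1 (orange square), with the range (grey bar) and median (black dash) of the other 11 tumors. Only Psmd7 lies above its grey bar in Cheek 1, at 301 RPKM against 129.7 at most elsewhere.

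The assembly chaperones, which help to build the base and leave the finished particle, were the lowest subcomplex, with medians from 10.8 (Psmd9) to 19.7 RPKM (Psmd5). Psmd5 was the odd one among them. It stood at 65.6 RPKM in Cheek 2 and 62.1 in Cheek 3, at 26.1 in Cheek 1, at 21.6, 35.9, 13.0 and 14.4 in the Retro-orbital tumors, at 16.7, 17.8 and 17.9 in the Meninges tumors, at 32.4 in Vestibular N 1 and at 16.7 in Trigeminal N 1. Only Cheek 2 and Cheek 3, which share a title part, exceeded 36 RPKM.

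The activators split into a variable set, Psme1 with Psme2, and a steady set, Psme3 and Psme4. Psme1 was the member with the highest median, 181 RPKM. Its levels were 183, 71.6, 161 and 296 RPKM in the Retro-orbital tumors, 115, 61.8 and 59.6 in the Cheek tumors, 254, 229 and 179 in the Meninges tumors, 231 in Vestibular N 1 and 218 in Trigeminal N 1. Psme2 stood at 67.9, 48.4, 55.7 and 139 RPKM in the Retro-orbital tumors, 75.4, 32.8 and 32.3 in the Cheek tumors, 129.6, 105 and 91.4 in the Meninges tumors, 85.7 in Vestibular N 1 and 92.4 in Trigeminal N 1. For both genes all Meninges tumors lay above all Cheek tumors, while the Retro-orbital tumors spread over both. How many of all genes separate the Meninges and Cheek tumors in this way was not counted. The ratio of Psme1 to Psme2 ran from 1.48 (Retro-orbital 2) to 2.9 (Retro-orbital 3). The 2 genes lie 5.91 kb apart on chromosome 14, on opposite strands, and Emc9 overlaps Psme1 on the other strand. Psme3, which forms a nuclear activator, had a median of 29.1 RPKM (23.8 to 38.1), and Psme4, which caps the core without ATP, 24.0 RPKM (19.1 to 32.8).

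The members varied little for most subunits. Of the 39 tested, 25 had less than a 2-fold range over the 12 tumors and 5 more than a 3-fold range (Psmb10, Psme1, Psme2, Psmd5 and Psmd7). Their median SD was 0.26 on the log2 scale, against 0.48 over all genes tested and 0.38 over the 6626 genes with a median of at least 10 RPKM. The chaperonin CCT (8 genes, SD 0.33) and the translation initiation factor eIF3 (12 genes, SD 0.34) are given as other large complexes.

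Subunits rose and fell together to a moderate degree. The median Pearson's r over the 741 member pairs was 0.43 (Spearman's rho 0.4), and 86.0% of pairs were positive. The same measure was 0.05 over all gene pairs, 0.76 within eIF3 and 0.9 within CCT. All points share the 12 libraries, so these are descriptions. Within the core particle without Psmb10 (14 genes) the median r was 0.54, within the regulatory particle without the chaperones (17 genes) 0.5, and among Psmb10, Psme1 and Psme2 it was 0.94. Against the mean of the other members, 29 of 39 members had r of at least 0.5. Psmb7 (0.94), Psmd1 (0.93) and Psmd12 (0.9) followed it most closely, and Psmd5 (0.09), Psme1 (0.07) and Psme2 (0.11) hardly at all, with Psmb10 at 0.

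**Figure D3:**
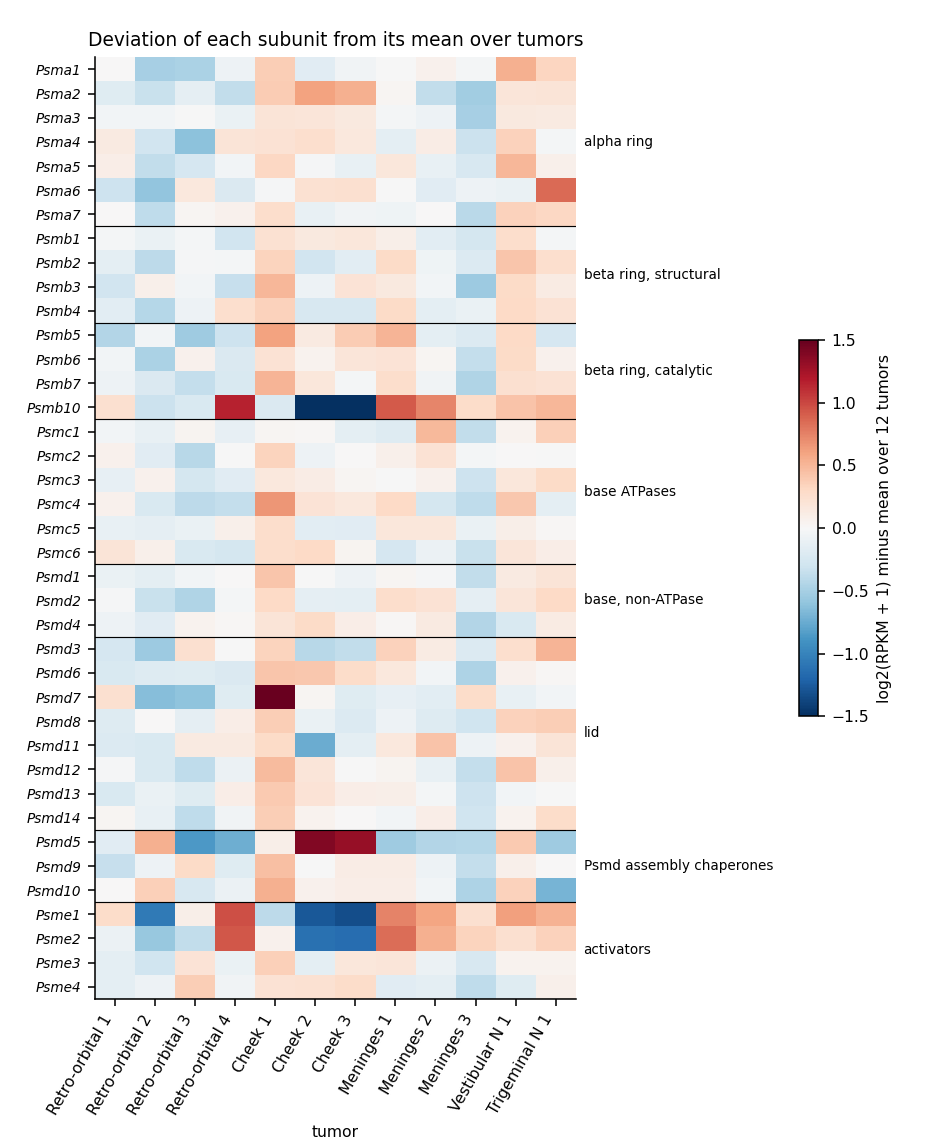
Difference of each tested subunit (rows, by subcomplex) in each tumor (columns) from its mean over 12 tumors, in log2(RPKM + 1), with the colour scale ending at 1.5 in either direction. Psmb10, Psme1 and Psme2 form a shared pattern with deep blue in Cheek 2 and Cheek 3, Psmd5 is red in the same tumors, and Psmd7 is reddest in Cheek 1.

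Outside the members, the genes most like their mean over the 12 tumors included Ddx52 (r 0.95), Nolc1 (0.93), Exosc4 and Mrpl11 (0.92 each), then Wdr74, Sf3b5, Shq1, Lrpprc and Chchd2 (0.91 each). Over 28 other genes of the pathway, r ran from -0.34 (Ubqln2) to 0.86 (Pomp, the maturation factor of the core particle). Next to Pomp stood the segregase Vcp (0.82) and the core assembly chaperone Psmg2 (0.79). Low values were also held by Uba6 (0.04), Ddi2 (0.21), Ufd1l (0.23) and Psmf1 (0.26). The transcription factors Nfe2l1 (-0.26) and Nfe2l2 (-0.22) did not follow the mean.

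Whether subunits differ by tumor location was asked in the 10 Retro-orbital, Cheek and Meninges tumors. In the limma F test no member of 39 passed an adjusted p of 0.05, and 6 of 14745 genes did (0.0407%). At an unadjusted p under 0.05 there were 7 members, against 14.3% of all genes. That number was 3 without Cheek 2 (7.05% of genes) and 3 without Cheek 3 (7.47%), 1 without both (6.23%), and 14 with median ratio scaling (15.2%). With the shared title part as a block, 13 of 39 members passed the adjusted threshold, as did 2802 of all 14745 genes. At an unadjusted p under 0.05 in that fit there were 21 members, against 34.0% of all genes. The smallest p among members belonged to Psma2, an alpha subunit, and to Psmb10. Psma2 was at 94.3, 84.4, 97.6 and 82.2 RPKM in the Retro-orbital tumors, 139.7, 163 and 155 in the Cheek tumors and 109, 82.3 and 74.0 in the Meninges tumors, so the Cheek tumors did not overlap the others. The means were 89.6 ± 7.47 (SD, n = 4), 153 ± 11.9 (n = 3) and 88.5 ± 18.4 RPKM (n = 3). In limma's F test over all genes the adjusted p was 0.177 for Psma2, and it was 0.0347 with the block, where the Cheek minus Retro-orbital difference moved from 0.76 to 0.49 on the log2 scale. Psmb10 had means of 34.6 ± 18.6, 12.7 ± 9.16 and 43.7 ± 9.89 RPKM in the same order (limma adjusted p = 0.239), and its Cheek and Retro-orbital tumors overlapped. With the block its adjusted p in limma was 0.00865. Its Cheek minus Retro-orbital difference was -1.45 on the log2 scale, and -0.43 without Cheek 2 and Cheek 3.

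All 3 Cheek tumors stood above all Retro-orbital and Meninges tumors for 4 of 39 members, against 2.56% of all genes. Besides Psma2 these were the alpha subunit Psma3 (83.9 to 87.0 RPKM against 53.2 to 75.2), the structural beta subunit Psmb1 (135 to 143 against 99.8 to 129) and the lid subunit Psmd6 (59.0 to 65.0 against 34.9 to 54.4). In Vestibular N 1, outside this fit, Psma3 was at 84.1 RPKM, inside the Cheek range, and Psmb1 at 146, above it. Psma2 (121) and Psmd6 (50.7) were below the Cheek tumors there, as were all 4 genes in Trigeminal N 1. No member lay wholly below in the Cheek tumors, against 3.4% of all genes. None was wholly above (0.631% of genes) or below (0.8%) in the Retro-orbital tumors, or wholly above (3.13%) or below (1.03%) in the Meninges tumors. Of the 3 Cheek tumors, 2 share a title part, so fewer than 3 mice may stand behind this pattern. Summed skeletal muscle markers were 14.2 to 499 RPKM in the Cheek, 5.34 to 190 in the Retro-orbital and 5.96 to 172 in the Meninges tumors, and their part in the result was not tested. Cheek 2 and Cheek 3, where Psmb10, Psme1 and Psme2 were low, held the highest of these sums (499 and 285 RPKM). Summed leukocyte markers were 607 to 1340 RPKM in the Cheek, 769 to 5693 in the Retro-orbital and 777 to 1864 in the Meninges tumors. Cheek 2 and Cheek 3 were not low in these sums (1263 and 1340 RPKM, against a median of 1172 over all tumors). Meninges 1 (777), Meninges 3 (875) and Vestibular N 1 (579) had lower sums but higher Psmb10, Psme1 and Psme2. Meninges 2 (1864) and Retro-orbital 4 (1768) had higher sums and also higher levels of these genes. All 6 leukocyte markers were above 0 in every tumor, and Lyz2 and C1qa had the highest levels among them. Ptprc, the common leukocyte antigen, was at 10.1 RPKM in Cheek 2 and 9.81 in Cheek 3, at 51.5 in Retro-orbital 4, where Psmb10, Psme1 and Psme2 were highest, and lowest in Vestibular N 1 (6.93). The part of these markers was not tested.

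The relation to Myc was followed over all 12 tumors. Myc stood at 59.2, 17.9, 23.4 and 16.0 RPKM in the Retro-orbital tumors, 33.9, 26 and 38.5 in the Cheek tumors, 32.0, 13.3 and 14.7 in the Meninges tumors, 37.6 in Vestibular N 1 and 30.6 in Trigeminal N 1. Its relative Mycn reached at most 2.45 RPKM. Subunits leaned upward with Myc, but none passed. Of 39 members 33 had a slope above 0, against 48.0% of all genes, with a median slope of 0.14 log2 units per log2 unit of Myc (0.09 without Meninges 3 and 0.22 without Retro-orbital 1). In the limma fit neither a member nor any other of the 15042 genes (0%) was called after adjustment. At an unadjusted p under 0.05 there were 3 members, all with positive slopes, against 9.88% of all genes (4.58% with a positive and 5.3% with a negative slope). The number was 1 without Retro-orbital 2 (10.0% of genes), Retro-orbital 4 (7.5%), Cheek 1 (8.57%) or Meninges 3 (9.52%), and 12 without Retro-orbital 1 (12.7%). It was 1 under quantile normalization (9.61%) and with the block (8.1%), and 8 with median ratio scaling (12.1%). The 3 were the ATPase Psmc4 (slope 0.37 ± 0.14 SE, limma adjusted p = 0.392), Psma2 (0.36 ± 0.15, adjusted p = 0.459, with a slope of 0.61 without Retro-orbital 1) and Psmb1 (0.2 ± 0.09, adjusted p = 0.494). The lid subunit Psmd14 had a slope of 0.13 ± 0.11 (limma adjusted p = 0.78), which was 0.08 without Meninges 3.

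**Figure D4:**
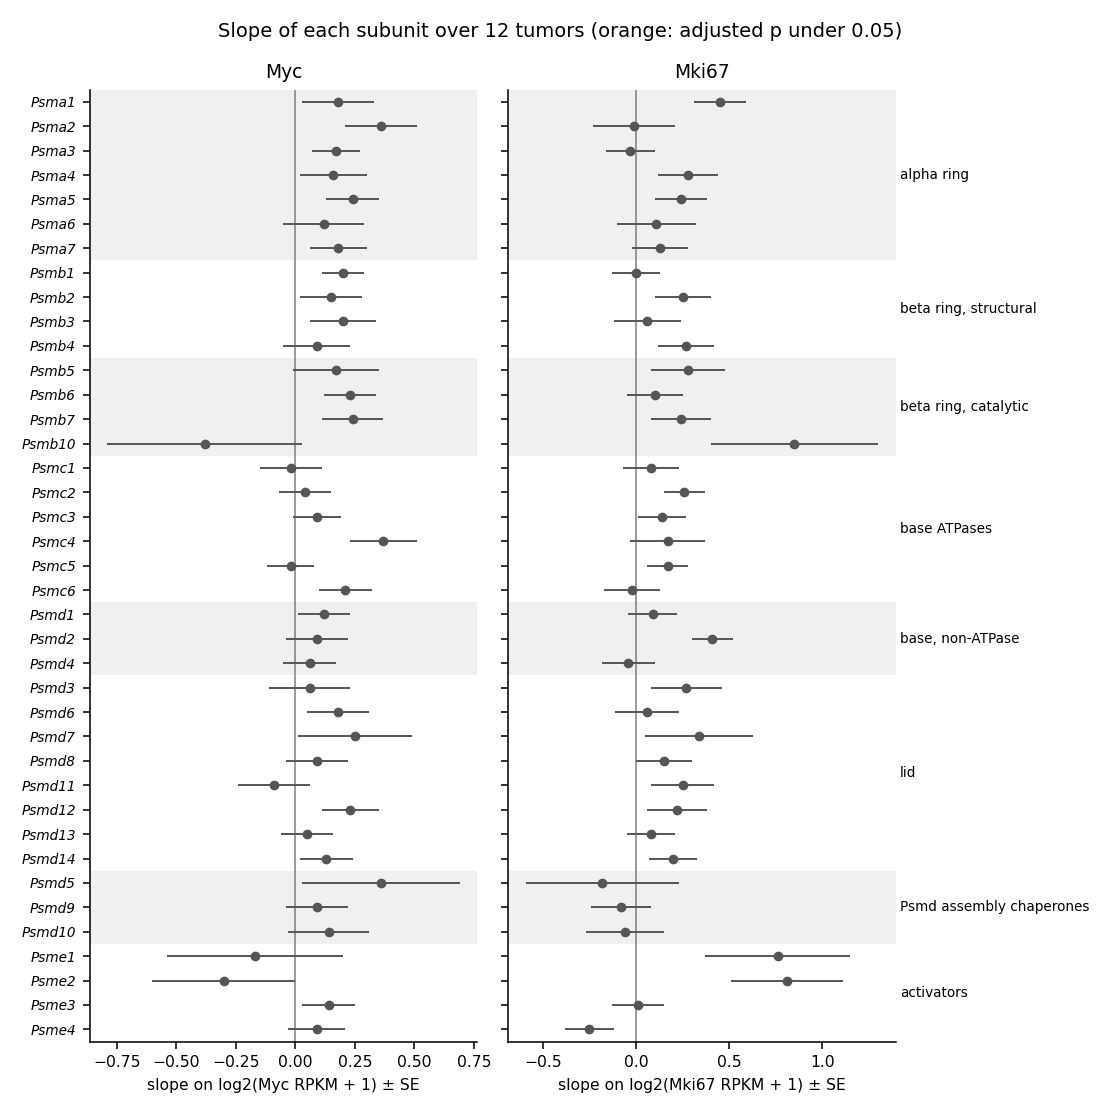
Slope of each of the 39 tested subunits on log2(Myc RPKM + 1) (left) and log2(Mki67 RPKM + 1) (right) over 12 tumors, with its standard error from limma, grouped by subcomplex. On the left 33 and on the right 31 slopes lie right of 0, and none passed the test (an orange point would mark an adjusted p under 0.05).

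The catalytic and activator subunits were also correlated with Myc, in 8 two-sided permutation tests with 100000 resamples, adjusted over all 15042 genes. Psmb6 had r = 0.61 (p = 0.0367, adjusted p = 0.461; rho 0.62, p = 0.0365, adjusted p = 0.422, permutation tests, higher Myc with higher Psmb6). Psmb7 had r = 0.53 (permutation p = 0.0782, adjusted p = 0.57; rho 0.56, p = 0.0627, adjusted p = 0.493) and Psmb5 r = 0.29 (p = 0.355, adjusted p = 0.82; rho 0.33, p = 0.299, adjusted p = 0.75). Psmb10 had r = -0.26 (permutation p = 0.414, adjusted p = 0.854; rho -0.31, p = 0.33, adjusted p = 0.778). Psme1 had r = -0.13 (permutation p = 0.675, adjusted p = 0.939; rho -0.18, p = 0.572, adjusted p = 0.89) and Psme2 r = -0.27 (p = 0.389, adjusted p = 0.841; rho -0.38, p = 0.218, adjusted p = 0.689). Psme3 had r = 0.44 (permutation p = 0.152, adjusted p = 0.667; rho 0.35, p = 0.264, adjusted p = 0.728) and Psme4 r = 0.24 (p = 0.439, adjusted p = 0.867; rho 0.1, p = 0.748, adjusted p = 0.943). None passed.

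Without the 2 tumors farthest from the median Myc value, Retro-orbital 1 (the highest) and Meninges 2 (the lowest), r rose to 0.92 for Psmb6 (permutation p = 0.00063, adjusted p = 0.267), 0.78 for Psmb7, 0.67 for Psmb5 and 0.74 for Psme3, and it was 0.4 for Psme4, -0.29 for Psmb10, -0.14 for Psme1 and -0.22 for Psme2, with none past the adjusted threshold. Members with an unadjusted p under 0.05 in the limma fit then numbered 12, against 10.1% of all genes in either direction. Without Retro-orbital 1 alone, the 12 members stood against 12.7% of all genes. Within locations, after centring the 10 tumors on their location means, r was 0.59 for Psmb6, 0.45 for Psmb7, 0.26 for Psmb5 and 0.36 for Psme3. It was 0.02 for Psmb10, 0.16 for Psme1, -0.01 for Psme2 and -0.09 for Psme4. In exact permutation within locations, the smallest unadjusted p was 0.164 (Psmb6), and adjusted p = 1 for each. Only 864 such permutations exist, so adjustment over 14744 genes leaves this test little room to pass any gene. In the same 10 tumors without centring, an alternative added after seeing the data, r was -0.34 for Psmb10, -0.25 for Psme1, -0.34 for Psme2 and 0.33 for Psme4.

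Other gene lists are set beside the background of 48.0% of all genes with a positive slope and 9.88% with an unadjusted p under 0.05. For CCT, 8 of 8 genes had positive slopes with an unadjusted p under 0.05 (median slope 0.41), for eIF3 11 of 12 (median slope 0.39), and for 7 known Myc targets 4 of 7 (median slope 0.45). Ncl, which acts in ribosome assembly, had a slope of 0.62 ± 0.1 (limma adjusted p = 0.2), and none of these genes passed. Whether the lists differ in slope was not tested. Of the 28 other pathway genes 19 had a positive slope. An unadjusted p under 0.05 was held by 4 of the 28, all with positive slopes, against 4.58% of all genes in that direction. These were Txnl1 (0.24 ± 0.09), the deubiquitinases Usp14 (0.37 ± 0.15) and Uchl5 (0.29 ± 0.13) that work at the regulatory particle, and Psmg2 (0.33 ± 0.15).

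Mki67, a marker of dividing cells (18.6 to 63.1 RPKM), was the next predictor. Nothing was called by limma after adjustment, members included (0% of genes). Of 39 members 31 had a positive slope, against 63.9% of all genes. There were 4 members with an unadjusted p under 0.05, all positive, against 13.9% of all genes (10.5% with a positive and 3.36% with a negative slope). The number was 10 without Retro-orbital 3 (25.6% of genes), 9 with the block (20.6%) and 2 with median ratio scaling (8.49%). The smallest belonged to the base subunit Psmd2 (slope 0.41 ± 0.11, limma adjusted p = 0.168) and to Psma1 (0.45 ± 0.14, adjusted p = 0.198). With Nfe2l1 (35.3 to 72.1 RPKM) as predictor, again nothing was called by limma (0%). Of 39 members 13 had a positive slope, against 65.0% of all genes. This count was 8 without Cheek 1 (63.1% of genes), 7 without Cheek 2 and Cheek 3 (52.3%), and 5 with median ratio scaling (49.4%) and with the block (58.6%). It rose to 18 without Meninges 3 (66.6%), where the median member slope moved from -0.13 to -0.01. The members with an unadjusted p under 0.05 were Psma6 (-0.72 ± 0.28, limma adjusted p = 0.744), Psma2 (-0.74 ± 0.3) and Psmd4 (-0.44 ± 0.2), all negative, against 6.65% of all genes (4.14% with a positive and 2.51% with a negative slope). Members under that threshold numbered 6 without Cheek 1, 5 negative and 1 positive (6.13% of genes). Their number was 1 without Cheek 2 (1.98%) or without Meninges 3 (5.73%). The slope of Psma6 was -0.45 without Trigeminal N 1, which held its highest level, and that of Psma2 was -0.32 without Cheek 2 and Cheek 3. Nfe2l1 is controlled by cutting of its protein, which RNA levels do not show.

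**Figure D5:**
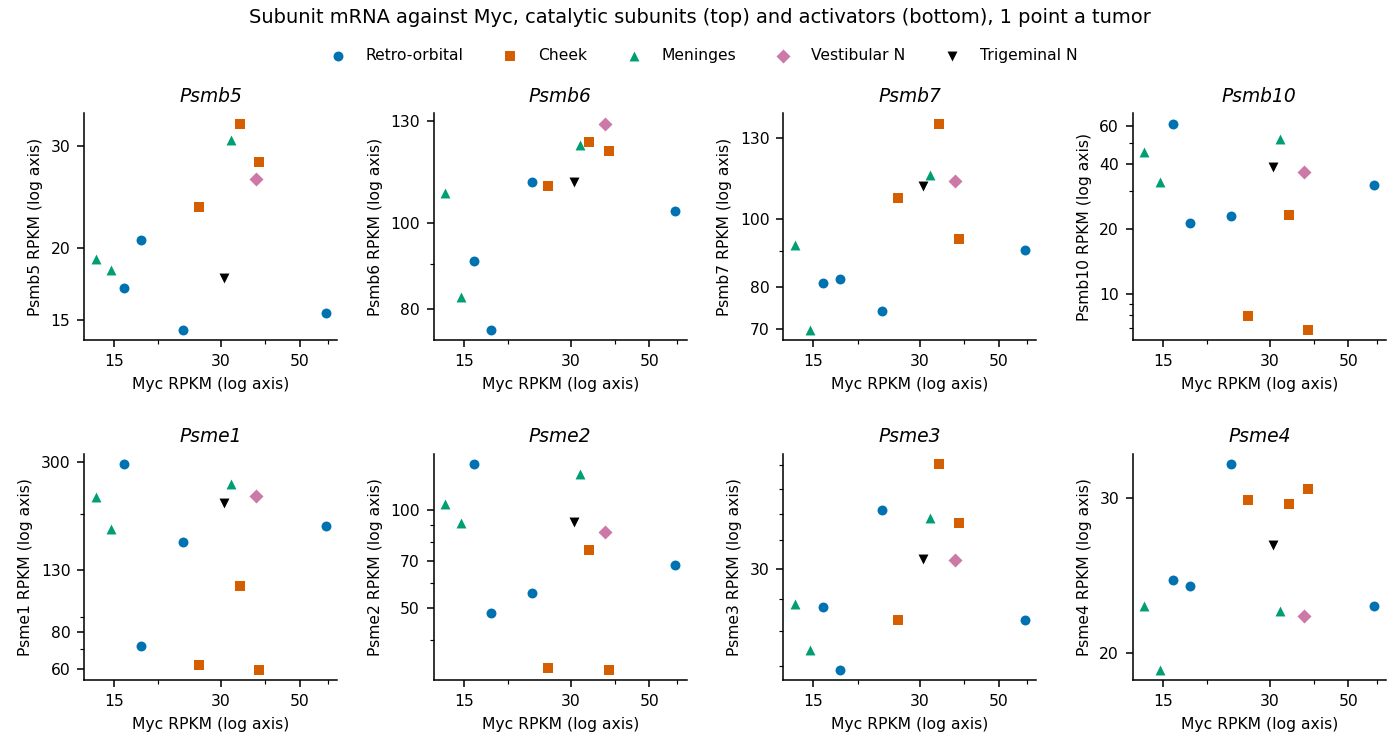
RPKM of the catalytic subunits Psmb5, Psmb6, Psmb7 and Psmb10 (top) and of the activators Psme1 to Psme4 (bottom) against Myc, log axes, 1 point a tumor, coloured by location. Retro-orbital 1, at 59.2 RPKM of Myc, stands apart at the right of each panel, and Cheek 2 and Cheek 3 lie at the bottom for Psmb10, Psme1 and Psme2.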

How the data were processed

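RNA of 12 tumors was extracted with RiboPure, and stranded libraries were made after depletion of ribosomal RNA and sequenced as a single pool. The authors aligned reads to mm10 (STAR), counted those that mapped uniquely to RefSeq genes (HTSeq) and deposited 1 RPKM value per gene and tumor. The transcript length used and the strand setting are not given in the sources used here. Symbols turned into dates in 27 rows, which were kept but not named.

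The members and gene lists were chosen with earlier results of these data known. Values were tested as log2(RPKM + 1), which understates changes of low genes, with limma 3.58.1 (trended, robust) in R 4.3.3 over genes that reached 1 RPKM in 3 or more fitted tumors, adjusted by Benjamini-Hochberg at 0.05. The fits were an F test over 3 locations (10 tumors) and slopes on log2(RPKM + 1) of Myc, Mki67 and Nfe2l1 (12 tumors). The slope on a further predictor is not reported here. The scripts were tested on simulated data. Permutation tests and figures used Python 3.11.15, numpy 2.4.6, pandas 2.3.3 and matplotlib 3.10.9. Library totals in fragments were worked out from the step sizes of low RPKM values. Since nothing says that the tumors came from separate mice, p-values measure the spread between tumors. Positions are from GENCODE on GRCm38, the same build as mm10.

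Named were the catalytic subunits, Psmd14, the activators, Psma8 and Psmb11, the highest and lowest median of each subcomplex, the largest and smallest SD, and in each fit the 2 members of smallest p, none being called. Psma3, Psmb1, Psmd4, Psmd5, Psmd6 and Psmd7 were added after their values were seen. Pseudocount, filter, scaling, covariates, left-out tumors and a block for shared title parts were varied.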

Additional observations from a re-analysis of the deposited data

Results flagged for a closer look

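In the 4 Retro-orbital tumors, the only location with enough tumors for a test of a single distant sample, 42 genes (the members above 1 RPKM and the 3 predictors) were examined on the log2 scale, and 2 members held a tumor whose gap to its nearest neighbour, divided by the spread of the 4 values, exceeded Dixon's critical value for 4 samples. Psma7 was at 43.7 RPKM in Retro-orbital 2, below 57.4, 58.6 and 59.8 RPKM in the others (gap over range 0.866). Psmc5 was at 81.6 RPKM in Retro-orbital 4, above 71.0, 70.1 and 71.7 RPKM (gap over range 0.847). Chance marks about 1 in 20 such groups.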

How the results depend on the processing

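In the location fit no member passed under any alternative except when the shared title part was a block. There 13 of 39 members passed (Psma2 and Psmb10 among them), beside 2802 of all 14745 genes. The labels do not tie title parts to mice, and the within-part correlation of 0.93 rests on 2 shared parts. Without the block 10 genes passed with no filter, 1 without Cheek 2 and Cheek 3 together (an alternative chosen after seeing the data), and 0 to 198 with a tumor left out (198 without Cheek 1, 0 without Cheek 2, Cheek 3 or Meninges 1). For Myc no member passed under any of 22 alternatives, and all genes called were 0 to 3 with a tumor left out. The members with a positive slope numbered 27 (quantile normalization, 53.4% of genes) to 36. The 36 arose without Meninges 2 (50.3%) and without the 2 tumors farthest from the median Myc (54.3%). In the 10 tumors of 3 locations, centred on location means, the correlation with Myc was 0.02 for Psmb10, 0.16 for Psme1 and -0.09 for Psme4, against -0.34, -0.25 and 0.33 in the same tumors without centring. For Mki67, 1 of 39 members (Psmd2) and 609 of 15042 genes passed with the block, and 18 genes with a pseudocount of 0.1. With a tumor left out, 0 to 1 members and 0 to 455 genes passed. Psmd3 passed without Retro-orbital 3, beside 455 of 14794 genes. For Nfe2l1 no member or gene passed under any of 18 alternatives.

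Median ratio scaling moved tumors by -0.21 (Cheek 2) to 0.17 (Meninges 1 and Vestibular N 1) on the log2 scale. No location pairs its tumors with another by number in the labels, so the block on shared title parts was the only such fit. RPKM gives no count test, and 3 to 4 tumors a location limit what the fits can find.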
